A study of Mus musculus with 6 samples.

Results

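The H3K27ac comparison between CD and DMSO in a chemical reprogramming study of mouse embryonic fibroblasts is described here. It rests on 4 of the 6 samples of the series, 2 after CD and 2 after DMSO, and on 1 deposited region list per condition, since both replicates of a condition name a common list. Counting the autosomes, X and Y, there were 104437 regions after CD and 75482 after DMSO, and both lists were compared at 21887 protein-coding genes. All cells were fibroblasts of the OG2X129 line taken through chemical reprogramming, and the antibody was Abcam Ab4729. The CD samples received CD, which the series title spells CD3254, a synthetic compound known to activate RXR, the retinoid X receptor. The DMSO samples received the solvent dimethyl sulfoxide. The labels give no dose, day, age or sex, and do not say whether replicates were separate cultures. The remaining 2 samples mapped Flag-tagged Rxra in overexpressing cells and are used once, as a second mark at genes.

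H3K27ac is acetylation of lysine 27 on histone H3, written by the acetyltransferases p300 and CBP and removed by histone deacetylases. It sits on nucleosomes flanking active promoters and active enhancers, and broad stretches of it mark genes that define a cell's identity. CUT&Tag reads it by tethering a transposase to the antibody, so that released fragments mark the acetylated sites. RXR pairs with other nuclear receptors on DNA, and a ligand leads the pair to recruit acetyltransferases. In reprogramming, somatic enhancers are known to lose the mark and pluripotency enhancers to gain it.

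The quantity compared was the number of bases that lie in called H3K27ac regions. The near window of a gene took in everything within 2.5 kb of either annotated end, and the far window ran from there to 50 kb. A gene was called when one list covered at least 2 times as many bases as the other, with a margin of at least 500 bases near and 1000 bases far. With 1 list per condition there is no replicate spread, so no difference below has an error or a test. The lists hold no read counts, so depth is unknown, and treatment and list depth cannot be told apart.

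The promoters of 6 genes show what lay under regions found in only 1 list. They belong to the first 3 genes in each direction, by near-window difference, whose promoter was overlapped by that list alone. Each runs from 250 bases before to 50 after the annotated start, 5′ to 3′ on the gene's strand, from RefSeq (GRCm38.p6). Capitals mark matches on either strand to GGGCGG (bound by Sp1), CCAAT (bound by NF-Y), TATAAA (bound by the TATA-binding protein), TGANTCA (AP-1), AGGTCA (a nuclear receptor element), CCGGAA (ETS) and CACGTG (an E-box). The first 3 were covered in CD and the last 3 in DMSO.
Cdk4, chr10:127063285-127063584, plus strand: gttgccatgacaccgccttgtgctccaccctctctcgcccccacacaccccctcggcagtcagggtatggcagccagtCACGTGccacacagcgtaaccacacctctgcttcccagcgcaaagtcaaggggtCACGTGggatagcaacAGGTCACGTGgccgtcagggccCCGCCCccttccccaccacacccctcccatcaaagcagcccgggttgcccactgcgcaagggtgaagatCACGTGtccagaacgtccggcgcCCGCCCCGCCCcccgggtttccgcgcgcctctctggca
Serinc4, chr2:121456715-121457014, minus strand: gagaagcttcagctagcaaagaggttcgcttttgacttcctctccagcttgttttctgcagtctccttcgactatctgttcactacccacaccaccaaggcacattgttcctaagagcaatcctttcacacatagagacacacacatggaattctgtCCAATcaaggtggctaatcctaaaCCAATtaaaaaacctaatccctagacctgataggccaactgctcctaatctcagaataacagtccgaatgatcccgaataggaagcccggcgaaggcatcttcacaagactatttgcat
Paxx, chr2:25461045-25461344, minus strand: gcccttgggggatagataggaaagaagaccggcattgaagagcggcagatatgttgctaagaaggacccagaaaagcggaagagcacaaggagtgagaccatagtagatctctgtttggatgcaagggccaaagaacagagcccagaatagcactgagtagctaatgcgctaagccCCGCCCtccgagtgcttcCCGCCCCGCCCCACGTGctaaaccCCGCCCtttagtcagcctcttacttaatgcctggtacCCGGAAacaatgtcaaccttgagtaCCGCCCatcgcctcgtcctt
Bnip2, chr9:69989216-69989515, plus strand: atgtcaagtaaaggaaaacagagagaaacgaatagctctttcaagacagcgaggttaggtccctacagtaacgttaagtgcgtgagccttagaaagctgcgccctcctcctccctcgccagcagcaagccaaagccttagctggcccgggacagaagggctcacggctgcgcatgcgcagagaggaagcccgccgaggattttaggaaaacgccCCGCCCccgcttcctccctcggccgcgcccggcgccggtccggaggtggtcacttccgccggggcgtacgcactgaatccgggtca
Vcl, chr14:20929148-20929447, plus strand: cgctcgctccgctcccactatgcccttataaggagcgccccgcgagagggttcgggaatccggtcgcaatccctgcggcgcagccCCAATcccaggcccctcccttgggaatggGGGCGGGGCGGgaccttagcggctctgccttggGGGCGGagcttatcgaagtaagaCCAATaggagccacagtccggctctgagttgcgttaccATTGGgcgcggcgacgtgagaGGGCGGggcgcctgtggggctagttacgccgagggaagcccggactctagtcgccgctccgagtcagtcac
Ppard, chr17:28232504-28232803, plus strand: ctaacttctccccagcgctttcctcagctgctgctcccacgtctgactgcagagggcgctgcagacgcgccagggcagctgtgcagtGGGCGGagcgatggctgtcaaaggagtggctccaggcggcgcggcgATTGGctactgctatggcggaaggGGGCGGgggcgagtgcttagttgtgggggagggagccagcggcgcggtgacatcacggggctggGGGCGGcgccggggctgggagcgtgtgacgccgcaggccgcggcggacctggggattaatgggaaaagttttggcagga

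Cdk4, the cyclin D partner kinase that opens S phase, had 2156 near bases in CD and 0 in DMSO. Its promoter held 22 CpG sites, 4 matches to CACGTG, 3 to GGGCGG and 1 to AGGTCA, and the AGGTCA overlapped a CACGTG. The CD region over it was 1742 bp wide, with a deposited fold of 2.75 and a −log10 q of 1.37. Serinc4 had 1982 near bases in CD and 0 in DMSO, over a promoter with 6 CpG sites and 2 matches to CCAAT. Paxx, a factor of DNA end joining, had 1923 in CD and 0 in DMSO, with 5 matches to GGGCGG, some overlapping each other. Ppard, an RXR partner receptor for fatty acids, had 0 near bases in CD and 2535 in DMSO, with 27 CpG sites and 3 GGGCGG matches. Vcl encodes vinculin of focal adhesions and had 281 in CD and 2866 in DMSO, with 30 CpG sites, 4 GGGCGG and 3 CCAAT matches. Bnip2, a BCL2-interacting protein, had 0 in CD and 2672 in DMSO, with 27 CpG sites. All 6 regions were weak: their −log10 q ran from 1.37 to 1.84, and the lists start at 1.00.

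The CD list held more but narrower regions. The CD list covered 37.3 Mb and the DMSO list 31.1 Mb, while region numbers stood in a ratio of 1.38. The quartiles of width were 182 and 464 bp in CD around a median of 270, and 206 and 533 bp in DMSO around 317. Regions of 1 kb or wider numbered 2639 in CD (2.53%) and 3515 in DMSO (4.66%), so the longer list held fewer wide ones. Those of 2 kb or wider were 83 and 145. A −log10 q under 2 was carried by 86.2% of CD and 81.7% of DMSO regions. Only 681 CD and 721 DMSO regions reached 5.

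Most regions were in 1 list only. Of CD regions 13.9% overlapped a DMSO region by at least 1 bp, and of DMSO regions 19.2% overlapped a CD region. The bases in common came to 4237 kb, 11.4% of the CD and 13.6% of the DMSO coverage. Overlap rose with width, in CD from 7.28% under 200 bp to 84.3% at 2 kb or wider, and in DMSO from 10.5% to 84.1%. It rose likewise with the deposited −log10 q, from 10.3% below 1.5 to 91.8% at 10 or above in CD and from 13.6% to 96.4% in DMSO. Most of the overlapping regions were nevertheless weak. Of 14558 in CD, 6571 had a −log10 q below 1.5 and 4239 one from 1.5 to 2, and of 14486 in DMSO, 5117 and 4677.

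**Figure D1:**
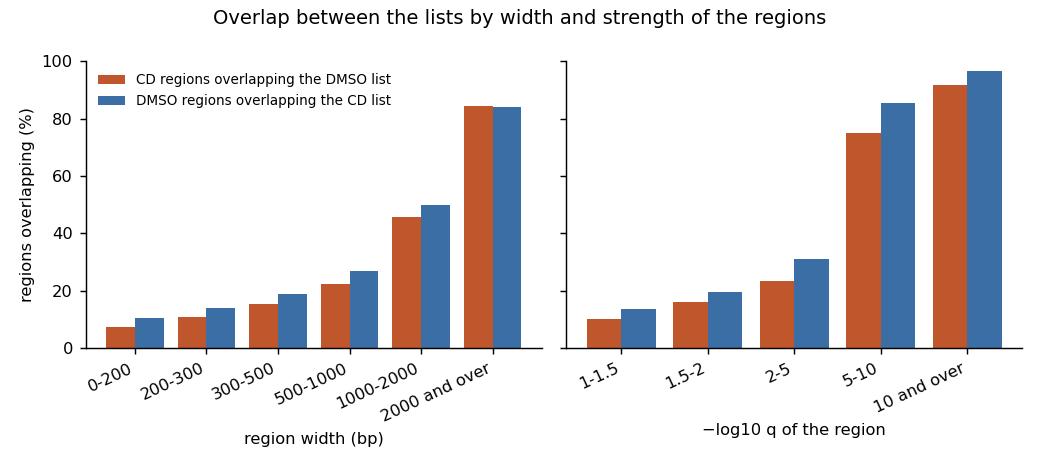
Percent of regions (vertical axis) that overlap the other list by 1 bp or more, by region width in bp (left) and by deposited −log10 q (right), for CD and DMSO regions. In both lists the share climbs with each class, up to 84.3% and 84.1% for the widest regions.

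By distance the lists changed order, with DMSO ahead at gene ends and CD ahead elsewhere. Within 1 kb of an end, CD regions covered 41.2 bases per kb and DMSO regions 45.1, a CD to DMSO ratio of 0.913. From 1 to 2.5 kb the ratio was 1.17 (25.4 against 21.7 bases per kb). In the 5 classes farther out it lay between 1.23 and 1.27. Beyond 50 kb the values were 7.64 and 6.17 bases per kb. The ratio within 1 kb was also below 1 under a stricter threshold (−log10 q of 2 or more; 0.576) and without regions under 300 bp (0.838). In a further setting, covered lengths matched, only the strongest CD regions that add up to the DMSO length were kept. Matching removes CD regions and no DMSO region, so it can only lower a CD to DMSO ratio and cannot undo a DMSO call, here and below. The ratio beyond 1 kb was 1.24 over both lists, 1.02 with lengths matched and 0.918 under the stricter threshold. DMSO was thus ahead within 1 kb of gene ends under the stricter threshold and without narrow regions, whereas beyond 1 kb the stricter threshold put DMSO ahead.

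**Figure D2:**
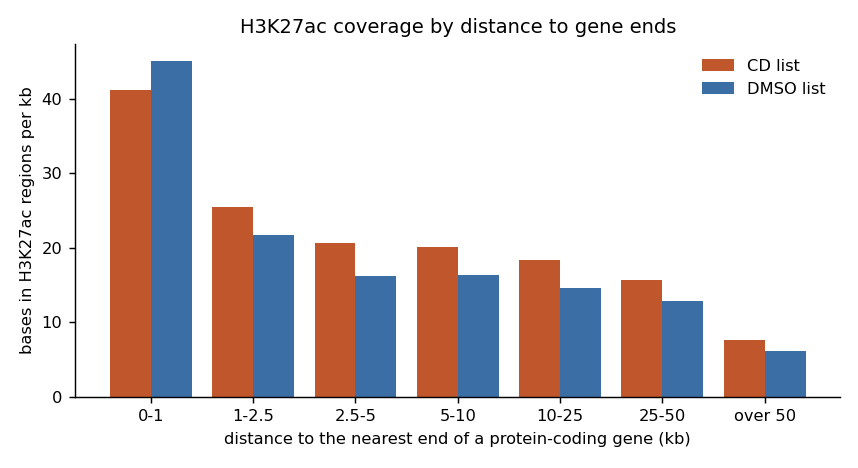
Bases in H3K27ac regions per kb of genome (vertical axis) by distance in kb to the nearest end of a protein-coding gene, for the CD and DMSO lists. DMSO is higher within 1 kb (45.1 against 41.2) and CD is higher in the other 6 classes.

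Strand was known for 17492 genes, which separates the start from the other end. Around the start (2.5 kb on either side) the mean was 215 covered bases in CD and 236 in DMSO, although more starts had any coverage in CD (43.7% against 39.6%). Around the other end the mean was 121 in CD and 102 in DMSO, with any coverage at 30.4% and 23.5% of genes. The first 250 bases after the start were the peak of both lists, with 9.56% of bases covered in CD and 12.4% in DMSO. At starts 1393 genes (7.96%) were called for CD and 1751 (10%) for DMSO, whereas at the other end 995 (5.69%) were called for CD and 787 (4.5%) for DMSO. CD thus had fewer called bases at starts and more at the other end, but under the stricter threshold the ratio was 0.916 at the other end too.

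**Figure D3:**
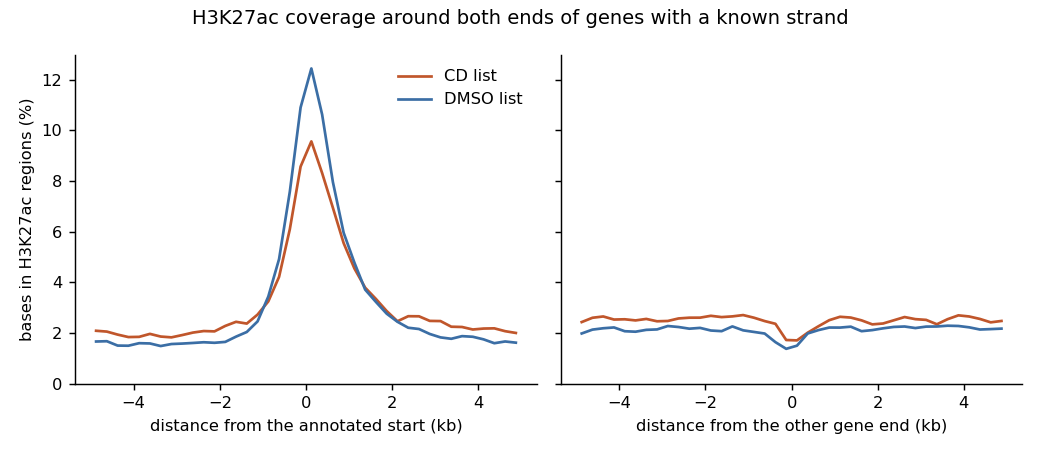
Percent of bases in H3K27ac regions (vertical axis) in bins of 250 bases, against distance in kb from the annotated start (left) and the other end (right), downstream positive, over 17492 genes. DMSO peaks at 12.4% and CD at 9.56% just after the start, and CD is higher in each bin around the other end.

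Promoters covered by DMSO alone outnumbered those covered by CD alone. Of 21263 promoter sequences, 1500 (7.05%) were overlapped in both lists, 1715 (8.07%) in CD only, 2293 (10.8%) in DMSO only and 15755 in neither. The median number of CpG sites in the 300 bases was 23 for both, 19 for CD only, 22 for DMSO only and 8 for neither. By CpG content, CD marked the larger share of the poorest promoters, with 3.70% against 2.52% at 0 to 4 sites. DMSO marked the larger share of the rich ones, with 33.2% against 26.2% at 20 to 29 sites. GGGCGG was found in 58.6% of CD-only and 66.1% of DMSO-only promoters, beside 46.2% of all. CCGGAA was in 27.5% and 32.4%, beside 18.7% of all. AGGTCA was in 13.5% and 12.6%, beside 14.7% of all, and TGANTCA in 5.01% and 4.88%, beside 6.99%. CACGTG was in 10.6% and 10.4%, beside 7.84%. CCAAT was in 39.1% and 40.0%, beside 38.2%, and TATAAA in 6.76% and 6.02%, beside 12.6%. The Sp1, ETS and E-box motifs each contain a CpG, and all 3 were more frequent in all 3 marked classes than over all promoters. The 2 classes marked in a single list differed less from each other than either did from the unmarked promoters, for each of these 7 motifs.

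At the level of genes the near windows were balanced. Any near coverage was found at 12290 genes in CD (56.2%) and 10812 in DMSO (49.4%), and 8225 genes had it in both. CD alone marked 4065 genes, DMSO alone 2587, and 7010 had no near region. The mean was 319.8 bases in CD and 320.1 in DMSO. The rule called 2527 genes for CD (11.5%) and 2521 for DMSO (11.5%). Of the CD calls, 60.4% had no near coverage in DMSO, and of the DMSO calls 45.1% had none in CD. A region past the stricter threshold was present at 22.0% of the CD-called and 28.3% of the DMSO-called genes, and one of 5 or more at 9 and 5 genes. Neighbouring genes within 5 kb share bases: 57.2% of CD-called and 59.7% of DMSO-called genes had a near window that overlapped another gene's, beside 46.0% of all genes. CD calls made up 50.1% of near calls, but 43.0% with lengths matched and 32.6% under the stricter threshold.

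The genes named for CD had from 0 to 361 near bases in DMSO. Atg101, part of the complex that starts autophagy, had the largest difference among the genes named here, with 2623 bases in CD and 172 in DMSO (chromosome 15, 101284301 to 101290947). Rhobtb2 had 2421 in CD and 1 in DMSO. Aloxe3, a skin lipoxygenase, had 2728 and 342. Pfkfb4, which sets the level of the activator of glycolysis fructose 2,6-bisphosphate, had 2081 and 0, and Blvrb, a biliverdin reductase, had 2383 and 284. These CD values were reached by 2 to 5 regions per gene, the widest being 1678 bp at Blvrb among the named genes other than Cdk4. Cd68, a lysosomal glycoprotein abundant in macrophages, had 2184 and 0. Pdgfc, a growth factor for mesenchymal cells, had 2385 and 361. Fam171a1 had 2148 and 0, and Slc26a8, an anion transporter, 2024 and 0.

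In the other direction, the genes named had from 0 to 298 near bases in CD. Bnip2 (chromosome 9, 69989438 to 70011659) and Vcl, whose promoters are printed above, had 2672 and 2866 near bases in DMSO. Mpp5, a scaffold of epithelial polarity, had 0 in CD and 2583 in DMSO. Arf6, a GTPase of endosome recycling, had 216 in CD and 2585 in DMSO. Regions over 2 kb wide lay at Mpp5 (2255 bp) and at Akt1s1 (2209 bp), an inhibitor of mTORC1, with 0 in CD and 2523 in DMSO. Ctsk, the collagen-cleaving cathepsin K, had 298 in CD and 2733 in DMSO. Rbbp6, a ubiquitin ligase, had 0 and 2418, and Phldb1 0 and 2537.

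**Figure D4:**
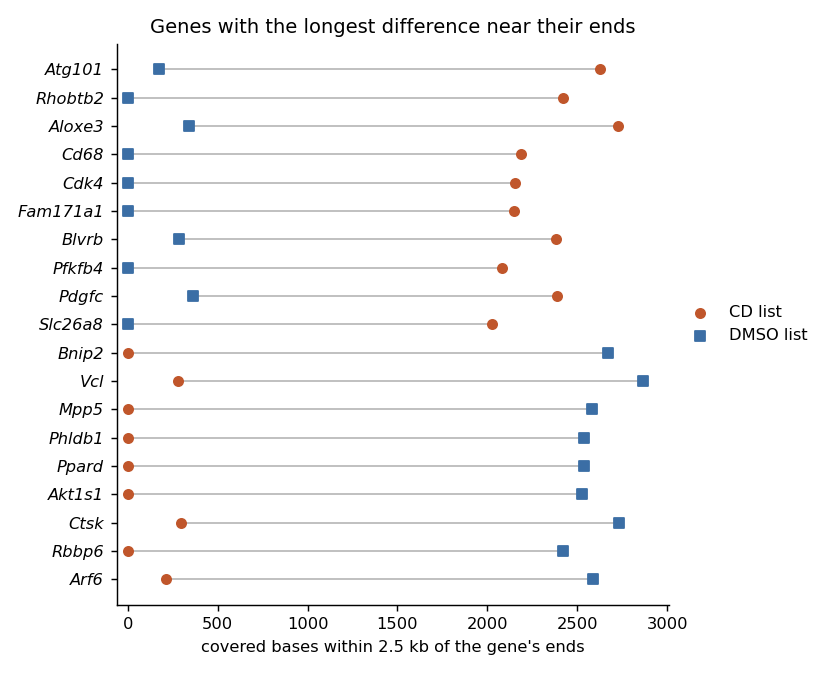
Covered bases within 2.5 kb of the gene's ends (horizontal axis) in the CD list (circles) and the DMSO list (squares) for the genes named in the text, 10 for CD and 9 for DMSO. The value in the lower list is at most 361 bases at each gene.

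Far from the ends CD was ahead at 12999 genes and DMSO at 6711. The mean far coverage was 2734 bases in CD and 2296 in DMSO, and the rule called 3254 genes for CD (14.9%) and 786 for DMSO (3.59%), so CD made up 80.5% of far calls. That split was 57.4% with lengths matched, 63.3% without regions under 300 bp, and 36.4% under the stricter threshold, where DMSO led with 1450 genes against 831. A far CD call was found at 17.0% of near-CD, 15.8% of near-DMSO and 14.4% of the genes with no near call, so the far calls differed little between these classes.

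Among far calls for CD, Sox13, a SoxD transcription factor, had 9934 bases in CD and 2045 in DMSO. Gigyf2, a translational repressor, had 9556 and 2364, and Ltbp1, which binds latent TGF-beta in the matrix, 7757 and 839. Map2k4, a kinase upstream of JNK, had 7190 and 733, and Rtf1 of the Paf1 elongation complex 6948 and 619. These sums came from 15 to 20 regions at each gene. Rfx2, a transcription factor of cilia, had 9271 and 2921, Iqgap3 8197 and 1595, Clybl 8170 and 1489, Tmem238 8284 and 1642, and Tmcc1 10157 and 3544. For DMSO, Lhfp (chromosome 3, 53041547 to 53261679) had 1088 in CD and 8197 in DMSO. Tnc, the matrix protein tenascin C, had 3304 and 9186, and Map4k4, a kinase of cell migration, 5818 and 11745. Apaf1 of the apoptosome had 3379 and 8677, and Ppp1r10, a protein phosphatase 1 subunit, 2206 and 7637. Gramd3 had 4804 and 11756, Ccdc136 3124 and 8969, Ankdd1a 3308 and 9119, Gipc2 4759 and 10223, and Dnhd1 2366 and 7720.

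Gene groups were read against the all-gene shares of 11.5% near in each direction, 14.9% far for CD and 3.59% far for DMSO. Under the stricter threshold the CD and DMSO shares were 2.22% and 4.59% near and 3.80% and 6.62% far. With lengths matched they were 9.63% and 12.7% near and 9.59% and 7.11% far. Near shares were 6.13% and 8.34% in a 1 kb window and 15.9% and 12.7% in a 5 kb window. The 32.0% of genes without near coverage could not be called near. Such genes were 0 of 26 TGF-beta pathway, 2 of 81 cytosolic ribosomal protein and 13 of 44 collagen genes, and their part was not tested. Replication-dependent histone genes, which supply nucleosomes in S phase, stood on the DMSO side near their ends: of 58 genes 1 was called for CD and 14 for DMSO (24.1%), with a median difference of −100.5 bases. The 14 genes lie at 3 loci and several share the same bases, so they are not separate observations. H2ac13 and H3c10 both had 268 bases in CD and 1467 in DMSO, and H4c14 had 445 and 1658. H2ac10 was the CD call, with 882 and 346. With lengths matched the counts were 0 and 18, and under the stricter threshold 2 and 8.

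Cytosolic ribosomal protein genes, also high in growing cells, were marked at 86.4% of 81 genes in CD and 88.9% in DMSO. Of these 10 were called for CD and 22 for DMSO (27.2%), but 6 and 9 under the stricter threshold. Rpl15 had 0 near bases in CD and 1521 in DMSO, and Rpsa 0 and 1432. Mitochondrial ribosomal protein genes had 14 of 77 near calls for CD and 12 for DMSO, but 1 and 8 under the stricter threshold, and 11 and 3 far. Complex I subunit genes, which build the first enzyme of the respiratory chain, leaned to CD: 10 of 37 (27%) were called for CD and 2 for DMSO. Ndufb11 had 1505 in CD and 0 in DMSO, Ndufa3 1300 and 0, and Ndufs3 1023 and 0, against Ndufv2 with 0 and 1318. The complex I counts were 2 and 2 under the stricter threshold. Of 44 proteasome genes 4 were called for CD and 7 for DMSO near, and 8 and 1 far, but 6 and 5 far with lengths matched. Psmb3 had 27 in CD and 2317 in DMSO near its ends, but 4361 and 1213 farther out.

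TGF-beta pathway genes, known for driving the mesenchymal state, had 2 of 26 near calls for CD and 8 for DMSO (30.8%). By role, the ligand Tgfb2 had 953 bases in CD and 0 in DMSO, but the ligands Tgfb3 (238 and 758) and Inhba (247 and 1085) went the other way. The co-receptor Tgfbr3 had 233 in CD and 2405 in DMSO, and the signal transducer Smad1 368 and 1037. Of the repressors of SMAD signalling, Skil had 0 and 1452 and Ski 986 and 376. The targets Id1 (168 and 826) and Id3 (656 and 1481) were DMSO calls, as was the matrix protein Ltbp2 (460 and 1036). Under the stricter threshold 2 of the TGF-beta pathway genes were called each way. In a 5 kb window 2 were called for CD and 4 for DMSO, with 12 genes ahead in CD and 14 in DMSO. Collagen genes had 3 of 44 called for CD and 8 for DMSO, among them Col1a2 (0 and 620), Col4a2 (0 and 1238) and Col13a1 (0 and 1450), but in a 5 kb window 10 for CD and 8 for DMSO. Integrin genes, the matrix receptors, had 0 of 31 for CD and 4 for DMSO, including Itgb1 with 479 and 1156, and 2 each way under the stricter threshold. Semaphorins, ephrins and Eph receptors, guidance cues and their receptors, leaned to CD, with 8 of 42 (19%) against 1. Sema6c had 1455 in CD and 287 in DMSO, Ephb3 1068 and 0, and Epha1 0 and 1296. In a 5 kb window the counts were 9 and 7.

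Of the retinoid receptors, Rxra had 869 near bases in CD and 0 in DMSO, and Rxrb had 0 and 1044. Of these 6 genes 1 was called each way near, but none under the stricter threshold. Without regions under 300 bp, and also in a 5 kb window, 0 were called for CD and 1 for DMSO. In a 1 kb window the counts were 0 and 2. Rara, a retinoic acid receptor, was close near its ends (619 and 468) and had 2172 and 5331 far. Of 13 partner receptors of RXR, 2 were near calls for CD and 6 for DMSO (46.2%). Far from their ends 3 were called for CD and 0 for DMSO, and 11 of the 13 had more bases in CD. Over all genes far calls also leaned to CD, at 14.9% against 3.59%. The far counts of the partners were 1 and 0 with lengths matched and under the stricter threshold. At that threshold 5 partners had more far bases in CD and 5 in DMSO. Nr1i2, the pregnane X receptor, had 2023 and 0 and Ppara 900 and 0. On the DMSO side were Ppard, the LXR gene Nr1h3 (0 and 609), the bile acid receptor Nr1h4 (168 and 884), Nr1i3 (278 and 977), Nr4a1 (0 and 1215) and Nr4a2 (86 and 1396). Under the stricter threshold 1 partner gene, on the CD side, was called near. Targets of LXR-RXR and PPAR-RXR had 2 of 21 near calls for CD and 3 for DMSO, close to the all-gene shares.

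The RNA exosome degrades nuclear RNA from its 3′ end and is named in the series title. Of 12 subunit genes Exosc1 (1255 in CD and 285 in DMSO) was called for CD, and Exosc4 (0 and 1180), Exosc5 (563 and 1388) and Exosc8 (0 and 737) for DMSO. Of 14 cofactor genes 4 were called each way near and 5 against 1 far. Nrde2, a partner of the exosome helicase, had 1587 and 217, and Zcchc7 of the TRAMP complex 766 and 0, while Rbm7 of the NEXT complex had 0 and 1021. The helicase gene Mtrex had 4938 and 777 far. The far counts of the cofactors were 0 for CD and 1 for DMSO under the stricter threshold.

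Retroelement silencing genes had 1 of 25 near calls for CD and 6 for DMSO (24.0%), but 1 and 2 under the stricter threshold. In a 5 kb window 1 was called for CD and 9 for DMSO, although 13 genes had more bases in CD and 12 in DMSO. Dnmt1, the maintenance DNA methyltransferase, had 297 in CD and 1843 in DMSO. Tasor, a subunit of the HUSH silencing complex, had 0 and 987, and Morc2a, which works with it, 614 and 1457. Ehmt1, an H3K9 methyltransferase, had 581 and 1662 near, but 7642 and 3138 far. Daxx, a histone H3.3 chaperone, was the CD call with 1129 and 466.

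Interferon signalling factors leaned to DMSO, with 2 of 19 called for CD and 6 for DMSO (31.6%). The receptors Ifnar1 (0 and 682) and Ifngr1 (0 and 775), the kinase Tyk2 (210 and 799) and the factors Irf1 (0 and 831) and Irf3 (442 and 1225) were among the 6. Irf5 (537 and 0) and Socs3 (511 and 0) were the CD calls. Under the stricter threshold no factor was called near, while 0 were called for CD and 5 for DMSO far. Interferon-stimulated genes were mixed near, with 5 of 26 for CD, such as Isg20 (1456 and 523), and 4 for DMSO, such as Ifitm2 (747 and 1525). Of 21 nucleic acid sensors 2 were CD calls, Dhx58 (985 and 0) and Sting1 (807 and 171). The 5 DMSO calls included Cgas (450 and 1491) and the exonuclease Trex1 (756 and 2077). Inflammatory cytokines and chemokines had 4 of 20 for CD, with Il11 at 1440 and 0, and 2 for DMSO. NF-kB pathway genes had 5 of 17 for CD and 3 for DMSO, and 4 each way with lengths matched.

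Pluripotency factors had 3 of 24 near calls for CD and 5 for DMSO. Sall4 had 676 in CD and 0 in DMSO, Trim71 838 and 0, and Tbx3 1728 and 767, while Klf4 had 741 and 1563, Klf5 370 and 1060, and Prdm14 0 and 626. Far from their ends 5 were called for CD and 0 for DMSO, among them Sall4 (3698 and 1003) and Fgf4 (2928 and 260), but 1 and 3 under the stricter threshold. Extraembryonic endoderm genes had 1 of 17 near calls for CD and 4 for DMSO, with Gata6 at 167 and 1162 near and 4913 and 2341 far. The endoderm near counts were 1 and 0 under the stricter threshold. Epithelial genes, which come on when fibroblasts lose their mesenchymal form, had 8 of 20 far calls for CD (40.0%) and 0 for DMSO. Epcam had 4283 in CD and 1369 in DMSO far, Cldn4 6857 and 2697, and Esrp2 3148 and 641. The epithelial far counts were 1 for CD and 4 for DMSO under the stricter threshold. Mesenchymal transcription factors had 4 of 23 near calls for CD, among them Snai1 (1033 and 254) and Zeb2 (895 and 0), and 2 for DMSO, such as Twist2 (884 and 2368).

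Circadian clock genes had 0 of 20 near calls for CD and 5 for DMSO (25%). The repressors Cry1 (0 and 1333), Nr1d2 (171 and 1557), Bhlhe40 (844 and 1751) and Ciart (0 and 908) and the output factor Hlf (0 and 708) made up the 5. Far from their ends 5 clock genes were called for CD and 1, Nr1d2 with 1518 and 5899, for DMSO. In a window of 1 kb the near counts were 2 and 2, and the far counts were 1 and 1 with lengths matched and 0 and 2 under the stricter threshold. Centrosomal Cep genes, needed for centrioles and cilia, had 1 of 36 near calls for CD and 8 for DMSO (22.2%), with Cep19 at 141 and 1430. Far, 10 (27.8%) were called for CD and 0 for DMSO, with Cep78 at 5499 and 1405. With lengths matched the Cep far counts were 8 and 0.

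Cell cycle genes were marked at 86.7% of 30 in CD and 53.3% in DMSO, beside 56.2% and 49.4% of all genes. Without regions under 300 bp 13 of the 30 were marked in CD and 15 in DMSO, and in a 1 kb window 14 and 13. Near calls were 2 for CD, Cdk4 and Mcm7 (532 and 0), and 4 for DMSO. The DMSO calls were Cdk2 (434 and 1403), Cdt1 (319 and 1399), Pcna (0 and 792) and E2f1 (349 and 1404). All 16 senescence genes were marked in CD and 9 (56.2%) in DMSO, but 11 and 9 with lengths matched and 0 and 3 under the stricter threshold. More bases were found in CD at 10 of them and in DMSO at 6, which turned to 6 and 8 with lengths matched. The inhibitor gene Cdkn2a had 1529 in CD and 214 in DMSO, and Trp53 599 and 0, while Cdkn1a, a p53 target, had 334 and 1718. Of these genes 4 were near calls for CD and 1 for DMSO, but 0 and 2 under the stricter threshold. Of 24 writers, erasers and readers of histone acetylation, 6 (25%) were near calls for CD and 3 for DMSO. The acetyltransferases Ep300 (885 and 343) and Kat2a (985 and 0) and the deacetylases Sirt6 (1464 and 251) and Hdac4 (872 and 0) were CD calls, and Kat2b (326 and 1069) and Hdac6 (350 and 1301) DMSO calls. With lengths matched there were 4 each way, and under the stricter threshold none. Hox genes, which set position along the body, had 4 of 39 near calls for CD and 2 for DMSO, and 9 and 1 far. The 9 lie at 3 clusters, such as Hoxc10 with 3526 and 719.

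**Figure D5:**
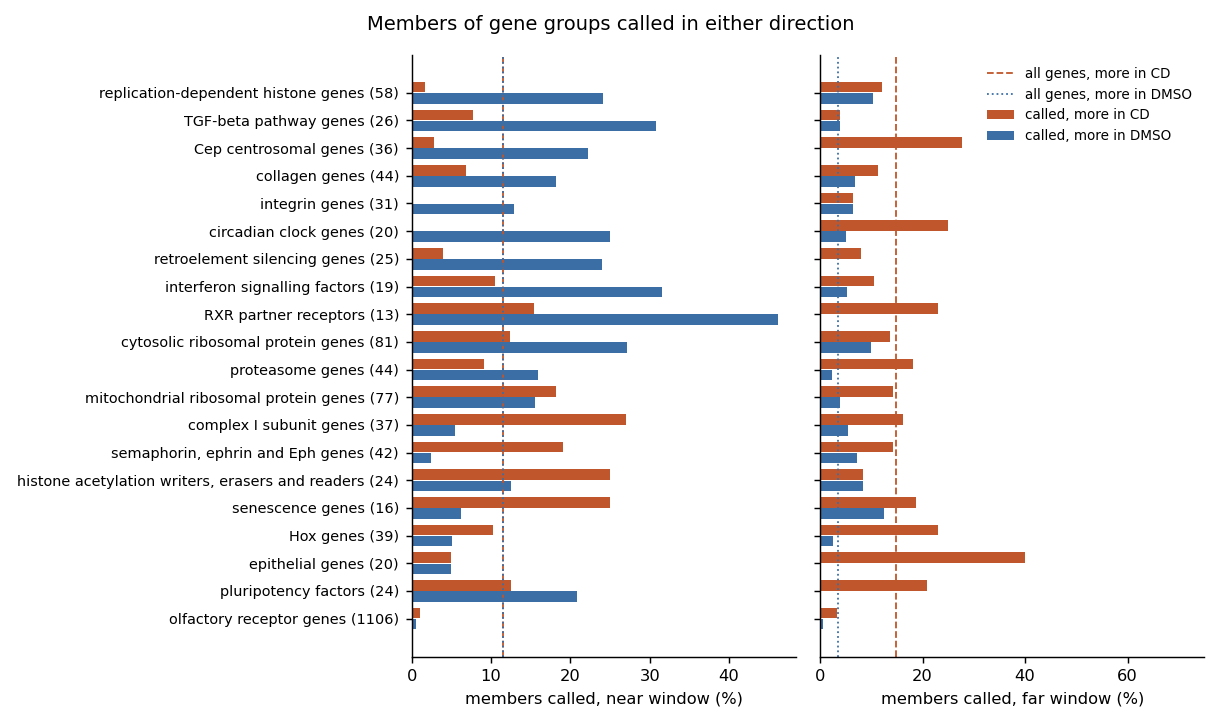
Percent of the members of 20 gene groups (number of genes in brackets) called for CD or DMSO in the near window (left) and the far window (right), with the all-gene shares as vertical lines (11.5% near for both, 14.9% and 3.59% far). Histone, Cep and circadian genes lie beyond the line for DMSO near, and complex I and semaphorin genes beyond the line for CD. The near lines include the 32.0% of genes that had no near coverage in either list.

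The labelled cell type was checked on 15 fibroblast markers. In each list 10 of them (66.7%) had near coverage, beside 56.2% and 49.4% of all genes. Pdgfrb had 1419 bases in CD and 1286 in DMSO, Vim 848 and 1066, and Col3a1 824 and 559, but Col1a1, Lum and Prrx1 had 0 in both. Fn1 had 998 in CD and 0 in DMSO. Of 10 macrophage markers 5 were marked in CD and 3 in DMSO, with summed near coverage of 4316 and 1520 bases, of which Cd68 gave 2184 and 0. Adgre1, Itgam, Ptprc and Tyrobp were at 0 in both. Of 9 endothelial markers 7 were marked in CD and 4 in DMSO, with sums of 3254 and 1343. Of 6 further marker lists, 5 had the larger sum in CD and hepatocyte markers in DMSO. Neural markers had 1810 bases in CD and 1212 in DMSO, keratinocyte markers 489 and 296, lymphocyte markers 1341 and 807, muscle markers 1418 and 1385, and germ cell markers 3228 and 2993. Hepatocyte markers had 281 and 655. By number of marked genes, DMSO was ahead for muscle (2 in CD and 3 in DMSO), lymphocyte (2 and 3) and germ cell markers (4 and 5). CD was ahead for neural (5 and 3), keratinocyte (3 and 2) and hepatocyte markers (2 and 1). The part of these marker genes in the results was not tested. Housekeeping genes were marked at 73.9% of 23 in CD and 78.3% in DMSO, and olfactory receptor genes, silent in fibroblasts, at 6.51% of 1106 in CD and 2.62% in DMSO.

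Long stretches of coverage were compared after joining regions. Joined over the gap commonly used to stitch enhancers, regions formed 43556 clusters in CD and 35154 in DMSO, of which 21786 and 18408 were single regions. Clusters with over 10 kb covered numbered 14 in each list, and those with over 5 kb 329 in CD and 218 in DMSO. The largest in both began at base 3000003 of chromosome 9, far from any gene, and ran to 3061084 in CD. It had 24440 covered bases in CD, with a −log10 q up to 494, and 24841 in DMSO. Regions were left out by chromosome only, with no filter for artefact signal, and whether this cluster reflects acetylation was not tested. The second largest, on chromosome 6 between Hrh1 and Atg7, had 18061 bases in CD. Among clusters over genes, that of Smurf2, a ubiquitin ligase of TGF-beta signalling, had 11654 bases in CD and 6372 in DMSO, and that around Maff 11174 and 6569. In DMSO, the cluster over Snx9 and Synj2 had 14337 bases, with 11941 in CD, and that over Tubd1 and Vmp1 12220, with 7768 in CD. Of regions whose −log10 q reached 5, 8.22% in CD and 7.35% in DMSO were near a gene end, against 14.2% and 16.1% of weaker ones.

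Chromosome X had a higher CD to DMSO ratio than each autosome over the full lists. It held 1268 CD and 696 DMSO regions, and covered bases had a ratio of 1.46, against 1.13 (chromosome 9) to 1.27 (chromosome 14) on autosomes. Widths were small, with medians of 232 bp in CD and 278 in DMSO. Its 966 genes had mean near coverage of 104 bases in CD and 90.8 in DMSO, and 39 were called for CD and 37 for DMSO near. Under the stricter threshold the X ratio was 0.852 and that of the autosomes together 0.869. With lengths matched they were 1.10 and 0.999.

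Flag-Rxra peaks were used as a second mark that the calls did not use. A peak found in both Flag-Rxra replicates lay within 2.5 kb of an end at 8107 genes (37.0%). It was present at 49.5% of near-CD and 62.8% of near-DMSO calls, and at 38.4% and 41.6% of far calls. By near coverage, the share was 61.1% of genes marked in both lists, 45.2% in DMSO only, 32.7% in CD only and 8.27% in neither. Promoters repeated that order, with 76.5% overlapped by a Flag-Rxra peak when marked in both, 60.2% in DMSO only, 47.2% in CD only and 18% in neither. The median CpG count of these 4 promoter classes followed the same order (23, 22, 19 and 8), and its part in the result was not tested. The labels do not say whether Flag-Rxra cells received CD.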

How the data were processed

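CUT&Tag was made with an H3K27ac antibody in 2 CD and 2 DMSO samples and with a Flag antibody in 2 samples. The build was mm10, and the tools were MACS2 2.1.2, deepTools 3.4.3, Bowtie2 2.2.5 and fastp 0.20.1, per the submitters' processing notes. How replicates were combined and whether a control library was used are not given in the sources used here. The authors deposited each region's fold, a ratio over their background, and its −log10 q. Both were used to describe, rank or filter regions within a list. Regions outside chromosomes 1 to 19, X and Y were left out (126 in CD and 106 in DMSO).

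Gene ends came from RefSeq (GRCm38.p6, the assembly of mm10) without exons, so exon, intron and UTR are not given. Promoter sequences matched 17492 of 21887 genes. Covered bases were summed with Python 3.11.15, numpy 2.4.6 and pandas 2.3.3, in code tested on simulated data. Named genes were the 10 with the largest difference per window and direction that were also called with covered lengths matched, 1 per 100 kb locus, without predicted models, and in gene lists called members and the largest differences; a few of these are not reported here. For covered lengths matched, the CD list was limited to its 84620 strongest regions. Members and lists were chosen with earlier results of these data known.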

Additional observations from a re-analysis of the deposited data

How the results depend on the processing

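Depth limits every value, since the lists hold no reads. No paired analysis was possible because each condition has 1 pooled list, and for the same reason no replicate was left out. The ratios by position were added after seeing the data. In each setting below the cause of a shift was not tested.

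At a −log10 q of 2 or more, near calls were 486 for CD and 1004 for DMSO and far calls 831 and 1450. The CD to DMSO ratio was then 0.591 around starts, 0.916 around the other end, 0.576 within 1 kb of an end, 0.918 beyond it, 0.852 on chromosome X and 0.869 on autosomes. With lengths matched the autosome ratio was 0.999 and far calls were 2099 and 1556. Far calls for DMSO were 1860 without regions under 300 bp and 1221 in a window to 25 kb. At 3 times the other list far calls were 1598 for CD and 242 for DMSO. A 1 kb near window gave 1342 CD calls. A 5 kb near window moved the share of CD among near calls to 55.5%, and a far window to 25 kb that among far calls to 72.3%.

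The share of overlapping regions was 8.65% in CD and 10.7% in DMSO where at least 1 in 2 bases of a region had to be covered. Without regions of −log10 q of 5 or more it was 13.3% and 18.3%, with lengths matched 15.7% and 17.5%, and without regions under 300 bp 14.9% and 17.4%. At a −log10 q of 2 or more in both lists it was 13.8% in CD and 14.4% in DMSO.

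Differences of single genes, in CD minus DMSO bases, changed sign at some settings. At a −log10 q of 2 or more they were Aloxe3 −130, Cdkn2a −214, Cep19 141, Cldn4 (far) −1628, Daxx −466, Fgf4 (far) −260, Gata6 167, H2ac10 −346, Id1 168, Id3 656, Ifitm2 747, Irf3 262, Itgb1 479, Map2k4 (far) −270, Pdgfc −165, Psmb3 (far) −201, Psmb3 27, Ski −376, Tbx3 −767 and Trex1 365. In a 1 kb near window they were Bhlhe40 500 and Cgas 153. In a 5 kb near window they were Irf5 −550, Nr1h4 29, Rxra −95, Sting1 −229 and Tgfb3 465. Of 114 called genes named for the near window, 19 were called the same way at a −log10 q of 2 or more. A further 9 kept the direction without a call and 16 changed sign. The difference was 0 at 70. At this threshold only 2468 of all genes in CD and 2814 in DMSO had any near base, so a difference of 0 does not show equal acetylation.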
